A study of Homo sapiens with 8 samples.

Results

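Interferon-stimulated genes are the transcripts that a cell switches on when interferon binds its surface receptors. This set held 38 such genes, taken by symbol from a list, and all 38 were found among the 43682 gene symbols counted in the RNA libraries. They were measured in UM-RC-2, an established line of clear cell renal cell carcinoma whose VHL gene carries the change p.Arg82Pro per the labels. Lentiviral infection was followed by selection with blasticidin at 10 µg/ml, so that cells stably expressed VHL (the VHL group, 2 libraries) or what the labels call VEC, without explaining it (the VEC group, 2 libraries). Every cell in both groups had therefore been through infection and selection, and the labels do not say whether the lines were pools or single clones, or whether replicates were separate cultures. No interferon treatment is named for either group.

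In the classical pathway, type I interferon binds IFNAR1 and IFNAR2, the kinases JAK1 and TYK2 phosphorylate STAT proteins, and STAT2 joins IRF9 in a complex that binds the interferon-stimulated response element (ISRE) in promoters. Interferon gamma acts through another element, called GAS. The genes so induced encode RNA sensors, enzymes that degrade or mark viral RNA, membrane proteins that block virus entry, the ubiquitin-like modifier ISG15, and proteins that restrain the response. Many are also expressed at a low level without interferon, through unphosphorylated STAT complexes and other factors. VHL is the substrate receptor of a ubiquitin ligase that marks HIF-alpha proteins for degradation.

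The ISRE cores of the genes described most closely are shown here, because the set is named for the response that runs through this element. The windows come from RefSeq (GRCh38.p14, while the counts were made on hg19) and span 30 bases, 5′ to 3′ on the strand of the gene. Capitals mark the core GAAANNGAAA, or TTTCNNTTTC where it lies in the other orientation.
IFI44L (chr1:78620365-78620394, plus strand): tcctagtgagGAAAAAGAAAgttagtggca
IFI44 (chr1:78649761-78649790, plus strand): gcacactgagTTTCAGTTTCctttctctga
IFI6 (chr1:27672288-27672317, minus strand): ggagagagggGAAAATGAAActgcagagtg
IFIH1 (chr2:162318686-162318715, minus strand): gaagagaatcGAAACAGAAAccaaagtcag
PARP9 (chr3:122564322-122564351, minus strand): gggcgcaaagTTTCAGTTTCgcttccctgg
ISG15 (chr1:1013380-1013409, plus strand): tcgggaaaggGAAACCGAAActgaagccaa
IFIT1 (chr10:89392510-89392539, plus strand): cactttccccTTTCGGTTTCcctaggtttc
The first 5 belong to genes that were higher in VHL in both replicates, picked among those with a core. ISG15 and IFIT1 carry the same kind of core and are shown beside them. On the log2 scale, IFIT1 was also higher in both replicates (0.05 and 0.56), while ISG15 was not (0.45 and -0.05). In IFI44L the same 30 bases occur again at chr1:78620274-78620303. Promoter windows, 250 bases before to 50 bases after a start, were given for 30 of the 38 genes. The ISRE core was found on either strand, with overlapping matches allowed, in 21 of these 30 (70%), against 4.38% of the 27305 genes with a window. The GAS core TTCNNNGAA, which reads the same on both strands, was found in 9 of the 30 (30%), against 9.38% of all. HERC6, SAMD9L and XAF1, also higher in VHL in both replicates, had no ISRE core in their windows. Among genes lower in both replicates, IFI27, IFITM1 and MX1 had the ISRE core and STAT2 did not. Whether the core goes with the change was not tested. A match describes the letters and does not show a bound site.

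Before the comparison, the libraries were checked. Total counts were 21306867 and 16230291 in VEC and VHL of replicate 1, and 50027348 and 46609709 in replicate 2. VHL itself was higher in the VHL library of both pairs, at 858 and 2726 counts in replicate 1 and 4053 and 6175 in replicate 2. The renal markers PAX8, KRT8, KRT18, VIM and CDH6 had at least 533 counts in every library. PAX2 had 31 and 22 counts in replicate 1 and 423 and 231 in replicate 2, NDUFA4L2 at most 49 and EPCAM at most 2. CA9, a target of hypoxia-inducible factors, had 1562 counts in VEC and 29 in VHL, then 2820 and 57. Libraries of the same replicate number resembled each other far more than libraries of the same group. Across 32 genes of the set, some of them at or near 0 counts in replicate 1, Pearson's r on the log2 scale reached 0.976 within replicate 1 and 0.979 within replicate 2. It was only 0.572 for the pair of VEC libraries and 0.567 for the pair of VHL libraries. These are correlations across genes, which are not independent replicates. Counts of pseudogenes made up 1.40% and 2.09% of the replicate 1 libraries and 31.3% and 25.0% of the replicate 2 libraries. VHL and VEC were therefore compared within each replicate number, and the difference between the numbers is described after that comparison.

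With VHL, 1 interferon-stimulated gene rose in the comparison within replicates. This was IFI44L, higher by a similar amount in both pairs. Its neighbour IFI44 was higher too but missed the threshold, and 15 others had opposite signs in the 2 pairs. Of the 38 genes, 34 passed the filter on low counts and OAS2, BST2, TRIM22 and EPSTI1 did not. In the fit with group as its only term, 0 of the 34 were called by edgeR's quasi-likelihood test (Benjamini-Hochberg adjusted p under 0.05 over all 24417 genes tested), and 0 had an unadjusted p under 0.05. That fit called 0% of all genes. With the replicate number as a block, 1 of the 34 was called, higher in VHL. The share called higher was 0.749% of all genes and 1.13% of protein-coding genes. None was called lower, against 2.35% of all genes and 2.52% of protein-coding genes. By edgeR with the block, 4 of the 34 had an unadjusted p under 0.05. In bulk RNA, fewer cells that express a gene and less RNA per cell cannot be told apart.

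Counted by sign, 13 of the 34 were higher in VHL in both pairs and 4 were lower in both, against 22.8% and 25% of all genes. Among the 13916 protein-coding genes tested, these shares were 29.8% and 29.2%. The 15 with opposite signs and 2 more make up the rest, since MX2 and IFITM2 had 0 counts in both replicate 1 libraries. Some signs rest on few reads in replicate 1, such as RSAD2 (1 and 2 counts) and XAF1 (1 and 3) among the higher, and IFITM1 (2 and 0) among the lower. Of the 24 genes with at least 20 counts in a library of each pair, 10 were higher in both, 2 lower in both and 12 opposite. The median change of the 34 was 0.10 on the log2 scale in replicate 1 and 0.15 in replicate 2, while the medians of all tested genes were 0 and -0.01. With scaling by DESeq2 size factors or by protein-coding genes, 12 were higher and 5 lower in both pairs, since XAF1 left the first group. Both VHL libraries lay above both VEC libraries for IFI44L, IFI44, IFI6, IFIT2 and PARP9 (5 of 34), against 4.47% of all genes and 7.06% of protein-coding ones. The reverse held for 0 of 34, against 3.39% of all genes.

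**Figure D1:**
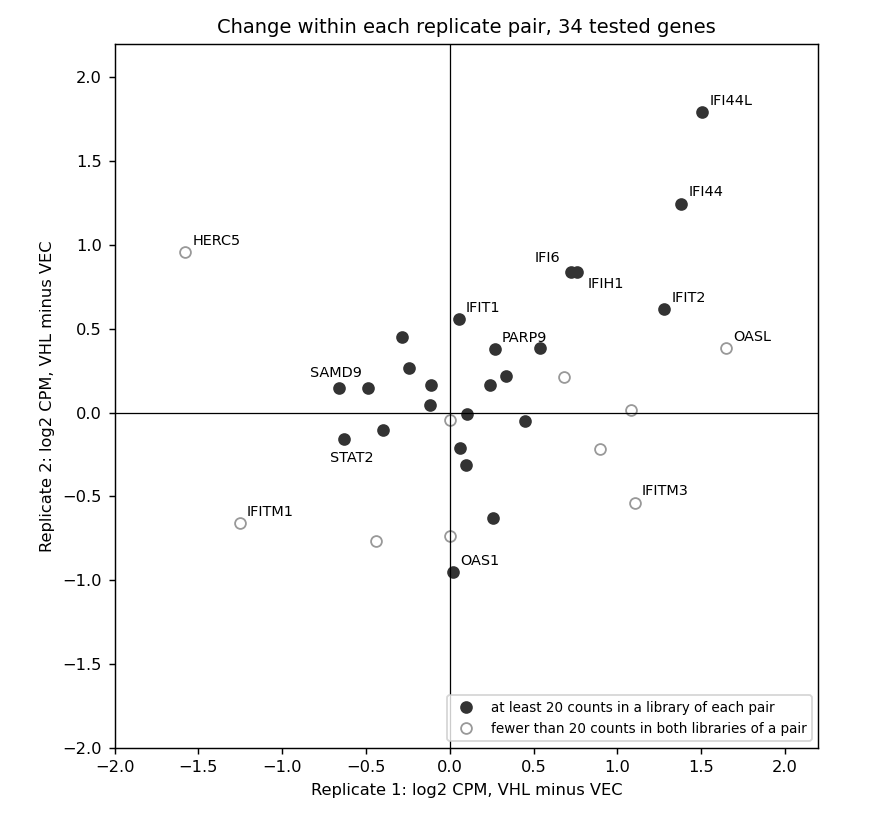
Change of each tested gene in log2 CPM (scaled counts, with a prior count of 2), VHL minus VEC, in replicate 1 (x axis) and replicate 2 (y axis). Each point is 1 of 34 genes, and open points have fewer than 20 counts in both libraries of a pair. IFI44L (1.505 and 1.795) and IFI44 (1.38 and 1.25) lie farthest out in the quadrant where both pairs are higher, and many genes lie near 0.

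IFI44L encodes an interferon-induced protein of the IFI44 family that restrains the interferon response. Counts are given as VEC then VHL, and changes as replicate 1 then replicate 2. It had 76 and 176 counts for replicate 1 and 108 and 342 for replicate 2. In CPM (counts scaled to library size, by TMM) this was 3.28 and 9.43, then 2.37 and 8.37, so both VHL libraries were more than double both VEC libraries. The log2 change was 1.505 in replicate 1 and 1.795 in replicate 2. With group alone the fitted change was 1.66 ± 1.10 (SE, 2 libraries in each group), which edgeR did not call (adjusted p = 0.999991). With the block it was 1.68 ± 0.35 (edgeR adjusted p = 0.000181). Its rank by p-value was 197 of 24417 genes.

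IFI44 lies beside IFI44L on chromosome 1 and encodes a related protein. Its counts were 52 and 111 for replicate 1, then 44 and 97 for replicate 2. The levels were 2.25 and 5.95 CPM in replicate 1 and 0.965 and 2.38 CPM in replicate 2. The groups did not overlap, but the lower VHL library was only a little above the higher VEC library. The changes of 1.38 and 1.25 gave a blocked log2 change of 1.35 ± 0.43 (edgeR adjusted p = 0.0576), just outside the threshold. Tested among protein-coding genes alone it was called (edgeR adjusted p = 0.0170). IFI44L and IFI44 were the only 2 of the 34 with a change of at least 1 in the same direction in both pairs, against 0.434% of all genes higher by that much.

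Among the other genes of the response whose chief role is less defined, IFI6, a mitochondrial and endoplasmic reticulum protein that limits apoptosis and flavivirus replication, had 43 and 58 counts in replicate 1 and 60 and 98 in replicate 2. Its levels of 1.86 and 3.11 CPM, then 1.32 and 2.40 CPM, did not overlap between groups, and the blocked log2 change was 0.81 ± 0.46 (edgeR adjusted p = 0.502). IFI35, which binds the protein NMI, had 200 and 168 counts, then 145 and 112, with changes of 0.06 and -0.21. IFI27 had 14 and 8 counts, then 2 and 0, too few for a comparison. EPSTI1 was counted at 3 and 7, then 3 and 13.

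**Figure D2:**
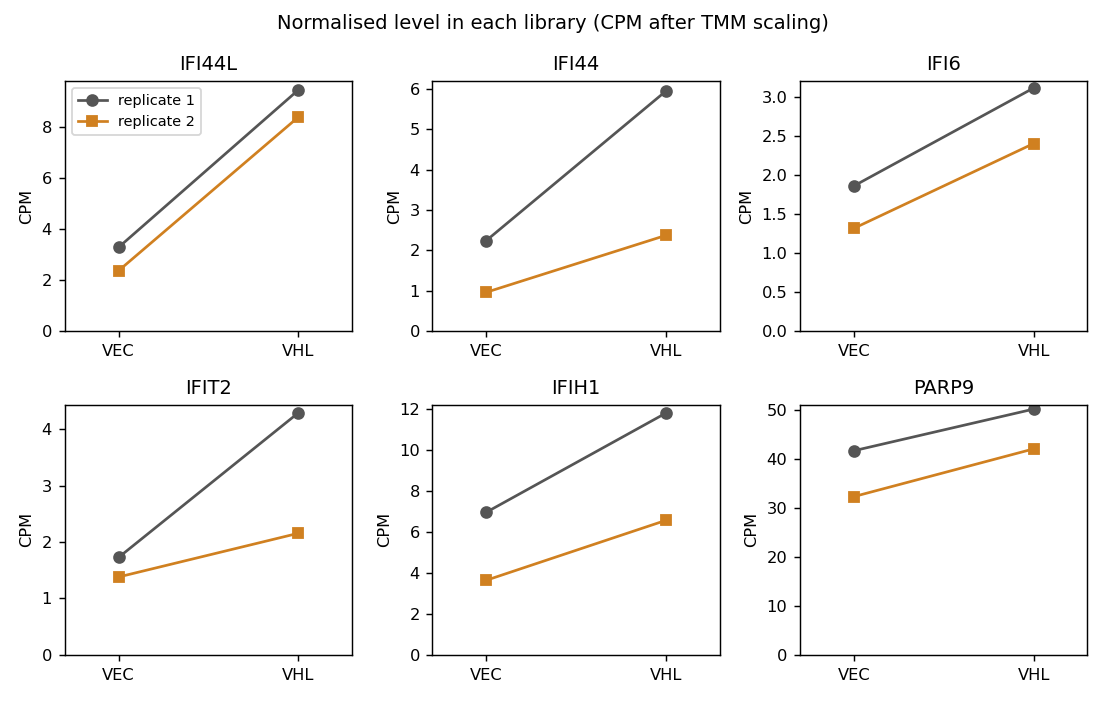
Levels of 6 genes in CPM (y axis, from 0) in the VEC and VHL libraries (x axis), with a line joining the libraries of each replicate number. The genes were picked among the 13 of 34 that were higher in VHL in both pairs, so all 12 lines rise by choice. IFI44L has nearly the same levels in both replicates, 3.28 to 9.43 and 2.37 to 8.37.

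The IFIT proteins bind viral RNA that lacks the cap marks of host mRNA. Their genes lie in a cluster of related copies, and how reads shared between copies were counted is not stated, so single values are uncertain. IFIT2 had 40 and 80 counts in replicate 1 and 63 and 88 in replicate 2. Its level was higher in VHL in both pairs, at 1.73 and 4.29 CPM and then 1.38 and 2.15 CPM, but the blocked log2 change of 0.96 ± 0.45 was not called (edgeR adjusted p = 0.327). IFIT1 had 312 and 261 counts, then 171 and 227, with changes of 0.05 and 0.56. IFIT3 had 380 and 259 counts, then 2489 and 2682, and differed by -0.24 and 0.27. IFIT5 had 1589 and 1051 counts, then 1489 and 1824, and differed by -0.28 and 0.45. So 2 of the 4 were higher in both pairs and 2 went in opposite directions.

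The IFITM proteins sit in membranes and block the fusion of entering viruses. All 3 genes were nearly silent in replicate 1. IFITM1 had 2 and 0 counts there and 58 and 32 in replicate 2. IFITM2 had 0 and 0, then 67 and 35, and IFITM3 had 5 and 10, then 92 and 56. In replicate 2 all 3 had fewer counts in VHL, with log2 changes of -0.66, -0.74 and -0.54 in the order given. Replicate 1 had too few counts of these genes to test this, and the blocked fit called none of them (edgeR adjusted p between 0.800 and 0.9996). These genes are also close copies that can share reads.

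The OAS enzymes sense double-stranded RNA and start its degradation through a second messenger. OAS3, the most counted of them, had 523 and 450 counts in replicate 1 and 705 and 509 in replicate 2, and differed by 0.09 and -0.31. OAS1 had 44 and 36 counts, then 48 and 21, with changes of 0.02 and -0.95. OASL, which lacks the enzyme activity, had 1 and 5, then 54 and 64. OAS2 had 0 and 1, then 11 and 16. None of the 3 tested genes was called in the blocked fit (edgeR adjusted p between 0.802 and 0.969), and the family had no common direction.

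**Figure D3:**
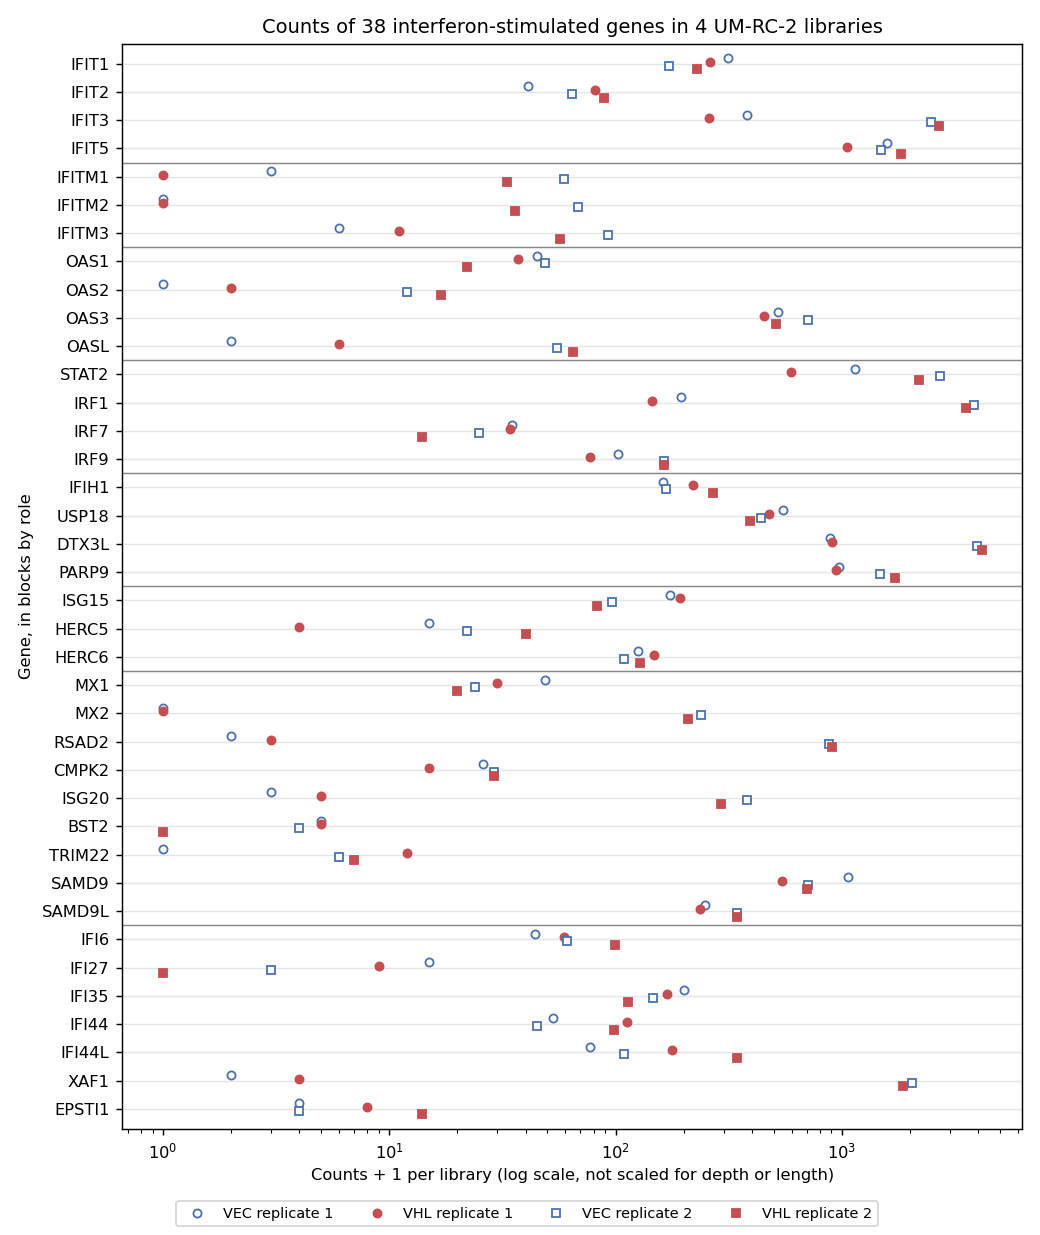
Counts plus 1 (log axis) of all 38 genes in the 4 libraries, not scaled for depth or gene length, with lines between blocks of genes by role. Circles are replicate 1 and squares replicate 2, open for VEC and filled for VHL. XAF1, RSAD2, MX2 and ISG20 have at most 4 counts in replicate 1 and at least 207 in replicate 2.

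None of the 4 transcription factors was called. STAT2, a subunit of the ISRE-binding complex, had 1146 and 596 counts in replicate 1 and 2725 and 2191 in replicate 2. Its levels were 49.5 and 32.0 CPM, then 59.7 and 53.6 CPM, so VHL was lower in both pairs while the groups overlapped, and the blocked log2 change of -0.39 ± 0.21 was not called (edgeR adjusted p = 0.464). IRF9, the DNA-binding subunit of that complex, had 102 and 76 counts, then 162 and 163, with changes of -0.11 and 0.17. IRF1, an early response factor induced through GAS, had 194 and 144 counts, then 3819 and 3531, with changes of -0.12 and 0.05. IRF7, the factor that amplifies interferon production, had 34 and 33 counts, then 24 and 13. The edgeR adjusted p of the last 3 lay between 0.985 and 0.997 in the blocked fit.

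Of 4 genes for RNA sensing and control of the signal, 3 had higher levels with VHL in both pairs and none was called. IFIH1, which encodes the double-stranded RNA sensor MDA5, had 161 and 220 counts in replicate 1 and 166 and 268 in replicate 2. Its level was 6.96 and 11.8 CPM, then 3.64 and 6.56 CPM, higher in VHL by a like amount in both pairs (0.76 and 0.84). The groups overlapped because replicate 2 was lower throughout, and the blocked log2 change of 0.81 ± 0.32 was not called (edgeR adjusted p = 0.182). PARP9 and DTX3L form a complex that ubiquitinates histones and viral proteins. Their genes lie head to head on opposite strands, and their promoter windows share an ISRE core. PARP9 had 967 and 938 counts, then 1477 and 1721, with changes of 0.27 and 0.38. DTX3L had 885 and 900 counts, then 3972 and 4143, with changes of 0.34 and 0.22. USP18, which removes ISG15 and blocks signalling at IFNAR2, had 547 and 474 counts, then 438 and 390, with changes of 0.10 and -0.01. None of the last 3 was called in the blocked fit (edgeR adjusted p between 0.620 and 0.992).

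ISG15, the ubiquitin-like modifier that is often used as a reporter of the response, had 173 and 191 counts in replicate 1 and 95 and 82 in replicate 2. It differed by 0.45 and -0.05, and the blocked fit gave 0.22 ± 0.36 (edgeR adjusted p = 0.944). HERC5, the human ligase for ISG15, was sparse, at 14 and 3 counts and then 21 and 39. HERC6, its relative, had 125 and 147 counts, then 108 and 127, and differed by 0.54 and 0.38 (edgeR adjusted p = 0.725). UBE2L6, the conjugating enzyme for ISG15, was not in the set of 38 and is described with the further genes.

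The remaining antiviral effectors showed no change that passed the test. MX1, a GTPase that traps viral nucleocapsids, had 48 and 29 counts in replicate 1 and 23 and 19 in replicate 2. SAMD9 and SAMD9L, restriction factors for poxviruses, had 1069 and 544, then 706 and 701 counts, and 248 and 236, then 342 and 344 counts. SAMD9 was thus lower in VHL in replicate 1 (-0.66) and not in replicate 2 (0.15). CMPK2, a mitochondrial nucleotide kinase, had 25 and 14 counts, then 28 and 28. Its neighbour RSAD2, which encodes viperin and overlaps it at the start, had 1 and 2 counts, then 873 and 908. MX2, an inhibitor of HIV, had 0 and 0 counts, then 238 and 207. ISG20, an exonuclease, had 2 and 4 counts, then 380 and 292. XAF1, a pro-apoptotic factor, had 1 and 3 counts, then 2046 and 1856. BST2, which encodes tetherin, had 4 and 4 counts, then 3 and 0, and TRIM22 had 0 and 11, then 5 and 6. The edgeR adjusted p of the 8 that were tested lay between 0.792 and 0.997 in the blocked fit.

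For part of the set, the difference between replicate numbers was far larger than that between groups. In replicate 2, 8 of the 34 genes were at least 2 higher on the log2 scale than in replicate 1, in VEC and in VHL alike: XAF1, RSAD2, MX2, ISG20, IFITM2, IFITM1, IRF1 and OASL. All genes tested passed this mark in 41.5% of cases and protein-coding genes in 15.9%. IFI27 was at least 2 lower in both groups, as were 5.44% of all genes. XAF1 went from 0.0432 to 44.9 CPM in VEC and from 0.161 to 45.4 CPM in VHL. RSAD2 went from 0.0432 to 19.1 CPM and from 0.107 to 22.2 CPM. IRF1, the only one of the 8 with over 5 counts in a replicate 1 library, went from 8.38 to 83.7 CPM and from 7.72 to 86.5 CPM. Other genes of the same response were lower in replicate 2: ISG15 went from 7.47 to 2.08 CPM and from 10.2 to 2.01 CPM, and MX1 from 2.07 to 0.504 CPM and from 1.56 to 0.465 CPM. The median of the 34 was -0.47 in VEC and -0.29 in VHL on the log2 scale, while the median of all genes was 0.81 and 0.80 and that of protein-coding genes -0.44 and -0.31.

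**Figure D4:**
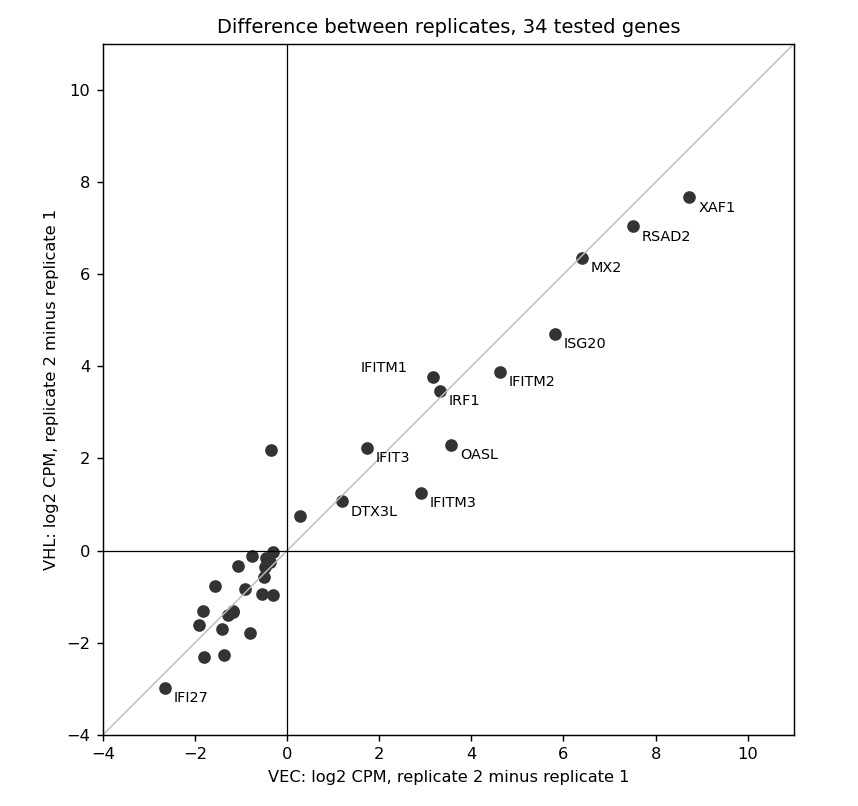
Difference in log2 CPM between replicate 2 and replicate 1 for the 34 tested genes, in VEC (x axis) and in VHL (y axis), with the line of equal difference. XAF1, RSAD2, MX2 and ISG20 lie farthest above 0 in both groups, while most of the set, with IFI27 lowest, lies below 0.

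Markers of leukocytes moved with the replicate number too. Their summed level, over 10 genes, was 17.7 and 12.3 CPM in replicate 1 and 94.4 and 89.4 CPM in replicate 2. At 0 were 8 and 5 of them in replicate 1 and 3 in each library of replicate 2. Most of the increase was LYZ, at 0 and 1 counts and then 1989 and 1793, and CD68, at 407 and 217 and then 1925 and 1505. PTPRC, which defines leukocytes, had 0 counts in replicate 1 and 72 and 63 in replicate 2, while CD3E, MS4A1 and NKG7 had 0 in all 4 libraries. The 4 plasmacytoid dendritic cell markers summed to 0.302 and 0.0536 CPM, then 13.0 and 11.8 CPM, with LILRA4 at 0 throughout. The 4 endothelial markers were at 0 in all 4 libraries, and the 5 fibroblast markers summed to at most 1.82 CPM. The file headers also name the alignments of replicate 1 and of replicate 2 differently. The part of these markers, of the share of pseudogene counts or of the alignments in the difference between replicates was not tested. Within a replicate number, the summed leukocyte level was lower in the VHL library, but most markers had too few counts in replicate 1 to give a direction. CD68, nearly all of the sum in replicate 1, had 17.58 and 11.63 CPM there and 42.21 and 36.85 CPM in replicate 2. Of the 5 leukocyte markers tested, 2 were higher in VHL in both pairs and 1 (CD68) was lower in both, against 22.8% and 25% of all genes. The 2 were CD4, with 0 and 5 counts in replicate 1, and LYZ, with 0 and 1, so these signs rest on few reads.

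Upstream of the set, 9 interferon genes were looked at, which leave out most of the IFNA family. IFNB1, IFNG, IFNL1, IFNL2 and IFNL3 had 0 counts in all 4 libraries, which does not exclude a very low level. IFNA2 had 1 count in all, and IFNA1 and IFNK at most 6 in any library. IFNE, an interferon of epithelia, had 6 and 12 counts in replicate 1 and 14 and 29 in replicate 2, and was not called in the blocked fit (edgeR adjusted p = 0.545). The receptor chains were present, IFNAR1 at 1091 and 935 counts and then 3566 and 3500, and IFNAR2 at 160 and 240 and then 2130 and 2497. IFNLR1, a chain of the lambda receptor, had 0 counts in both replicate 1 libraries and 2285 and 1811 in replicate 2. IFNAR2 was higher in VHL by 0.89 and 0.39 (edgeR adjusted p = 0.139 in the blocked fit). Of 15 ligand and receptor genes, 7 were tested and 0 were called with the block by edgeR, with 1 at an unadjusted p under 0.05.

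The signalling genes likewise gave no call. JAK1 had 3612 and 2621 counts, then 3421 and 2769, with log2 changes of -0.15 in both pairs, and TYK2 had 625 and 447, then 559 and 330, with -0.17 and -0.60. Of the 15 signalling genes, 13 were tested and edgeR with the block called 0, with 0 at an unadjusted p under 0.05. The median of the 13 was 0.03 in the blocked fit, against -0.03 for all genes.

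Of 19 genes for sensing of nucleic acids, 17 were tested and 1 was called in the blocked fit, lower. The share called lower was 2.35% of all genes and 2.52% of protein-coding genes. TLR3, the endosomal receptor for double-stranded RNA, fell from 1108 to 181 counts in the first pair and from 2842 to 1751 in the second. Its level dropped from 47.9 to 9.70 CPM and from 62.3 to 42.9 CPM, so the fall was large in replicate 1 and modest in replicate 2 (log2 -2.30 and -0.54). The blocked log2 change was -1.37 ± 0.23 (edgeR adjusted p = 5.55e-07), while DESeq2's Wald test with the block did not call it (adjusted p = 0.0877). RIGI, listed in the files under its older symbol DDX58, and CGAS were well counted and not called (edgeR adjusted p = 0.991 and 0.828). STING1 was listed at 0 in all 4 libraries.

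Of 21 genes for antigen presentation, which interferon also induces, 19 were tested and 2 were called in the blocked fit, 1 higher and 1 lower. The shares called higher and lower were 0.749% and 2.35% of all genes, and 1.13% and 2.52% of protein-coding genes. TAP2, a subunit of the peptide transporter, rose from 490 to 728 counts and from 516 to 963. At 21.2 and 39.0 CPM, then 11.3 and 23.6 CPM, its blocked log2 change was 0.97 ± 0.24 (edgeR adjusted p = 0.00330). HLA-F, a non-classical class I gene, fell from 59 to 12 counts and from 305 to 120, with -1.47 ± 0.43 (edgeR adjusted p = 0.0265). DESeq2 with the block and no independent filtering did not call it (adjusted p = 0.154). HLA genes share reads with each other, so its values are uncertain.

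A list of 51 further interferon-stimulated genes gave 5 calls among 44 tested, 3 higher and 2 lower. The shares called higher and lower were 0.749% and 2.35% of all genes, and 1.13% and 2.52% of protein-coding genes. This list, like the others, was chosen with earlier results of these data known. UBE2L6 rose from 24 to 59 counts and from 20 to 72, with a blocked log2 change of 1.80 ± 0.53 (edgeR adjusted p = 0.0306). DESeq2 with the block and no independent filtering did not call UBE2L6 (adjusted p = 0.110). IFI30, a lysosomal thiol reductase, rose from 653 to 866 counts and from 601 to 1249, by 0.97 ± 0.23 (edgeR adjusted p = 0.00177). DDX60L, an RNA helicase, rose from 491 to 737 and from 942 to 1336, by 0.78 ± 0.23 (edgeR adjusted p = 0.0271, and 0.0596 for DDX60L with no filter on low counts). The trypanolytic factor gene APOL1 fell from 3331 to 879 counts and from 8113 to 3964, by -1.24 ± 0.22 on the log2 scale (edgeR adjusted p = 7.80e-06). APOL2, its relative, fell from 2807 to 1067 and from 3371 to 2331, by -0.73 ± 0.22 (edgeR adjusted p = 0.0318). The call of APOL2 was lost with no filter on low counts (edgeR adjusted p = 0.0675) and in DESeq2 with the block and no independent filtering (adjusted p = 0.0561). The median of the 44 was 0.06 in the blocked fit, and that of the 34 genes of the set 0.03.

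**Figure D5:**
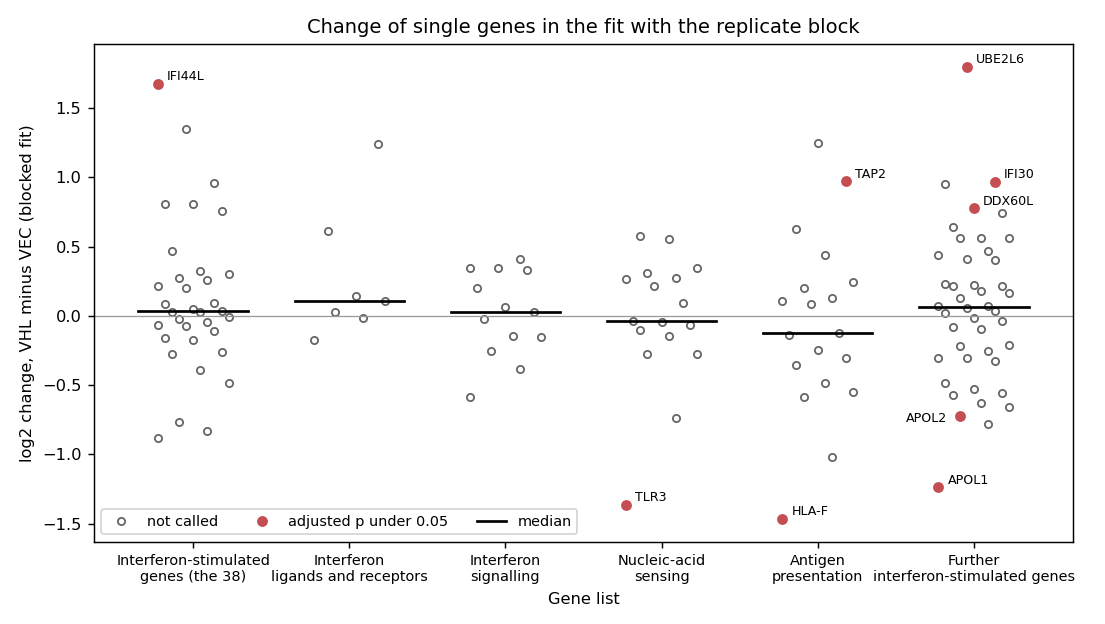
Log2 change in the blocked fit, VHL minus VEC (y axis), of each tested gene in the set of 38 and in 5 related lists (x axis). Filled points passed an edgeR adjusted p of 0.05, open points did not, and bars are medians, which lie between -0.12 and 0.11. The 9 filled points lie on both sides of 0, with IFI44L and UBE2L6 highest and HLA-F and TLR3 lowest.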

How the data were processed

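The RNA values were raw counts per gene symbol as deposited by the authors, from hg19 alignments per the file headers. The submitters' processing notes name featureCounts and HOMER without a version. The aligner, annotation, strand setting and treatment of multi-mapping reads are not given in the sources used here. The H3K27ac tables were not used here, because their regions have no positions. The labels' titles gave group and replicate number, call the RNA libraries ChIP-seq as well as RNA, and do not say what a shared number marks. Deviations from the group means correlated at 0.983 between same-numbered libraries.

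In R 4.3.3, edgeR 4.0.16 (filterByExpr, TMM, glmQLFit and glmQLFTest, two-sided) was fitted to all 24417 genes that passed the filter, with group as the only term (the group-only fit) and with the replicate number added (the blocked fit, 1 residual degree of freedom). P-values were adjusted over all genes tested. Standard errors (SE) were derived from the fitted change and its F statistic. CPM used TMM scaling, and changes within a pair used 2 as prior count. Alternatives included DESeq2 1.42.0. With 2 libraries per group, p-values rest on the spread between these libraries, which may be technical. In the blocked fit, with 1 residual degree of freedom per gene, that spread was largely estimated across genes. Its p-values therefore do not measure how closely the pairs agree for a single gene. TLR3 (log2 changes of -2.30 and -0.54) had an SE of 0.23, and PARP9 (0.27 and 0.38) one of 0.21.

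Counts in all libraries were given for genes called in the blocked fit, those changed by at least 1 in the same or in opposite directions in both pairs, the IFIT, IFITM and OAS families and the transcription factors. The rest are given in brief, since the set is small. Outside the set, IFNAR1, IFNAR2, JAK1, TYK2, IFNB1 and called genes of 5 lists were named, and IFI6, IFIH1, IFIT2 and others were singled out after their values were seen. Some results are not reported here. The set and the lists were chosen with earlier results of these data known.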

Additional observations from a re-analysis of the deposited data

How the results depend on the processing

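The block decided the calls. Over all genes, group alone gave 0 calls by edgeR (22 at an unadjusted p under 0.05) and the replicate block 756. Blocked counts were 999 under DESeq2 size factors, 640 without a filter, 762 at a mean of at least 50 counts, 993 among protein-coding genes, 1215 in DESeq2's Wald test and 1069 in that test without independent filtering, a setting added after the data were seen. Without the block DESeq2 called 6. In the set of 38, the replicate block gave 1 call (IFI44L) in each edgeR fit but that of protein-coding genes, which gave 2 (IFI44 added). DESeq2 with the block gave 0 (5 at an unadjusted p under 0.05), since IFI44L received no adjusted p there, and 1 (IFI44L) without independent filtering (adjusted p = 0.00178). The adjusted p of IFI44L lay between 2.22e-05 and 0.000706 over the edgeR fits with the block, and that of IFI44 between 0.0170 and 0.0783.

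The median log2 change of the set, 0.047 with group alone, was 0.152 at a mean of at least 50 counts and 0.134 with the block added to that filter, which tests fewer of the genes. It was 0.0048 among protein-coding genes and -0.0061 with DESeq2 size factors, both with the block. Leaving out 1 library moved it to between 0.184 and 0.389, where the median of all genes ran from -0.65 to 0.66, and no gene of the set was called. For 15 genes followed through these settings, IFI44L, IFI44, IFI6, IFIH1, IFIT2 and STAT2 among them, no setting run reversed the direction. With the block, 1 left-out library leaves no degree of freedom, so those fits were not run. Low counts limit the set: 24 of 38 genes had at least 20 counts in a library of each pair.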
